A study of Mus musculus with 14 samples.

Results

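Platelets carry out their work with stored granules, receptors for agonists such as thrombin and ADP, enzymes that make thromboxane, signalling proteins that activate integrins, and a specialised cytoskeleton. A set of 37 mouse genes for these functions, out of 49315 genes in the spleen count table, was named gene by gene and followed in poly(A) RNA-seq of mice that lack *Zfp36l2*, an RNA-binding protein that recognises AU-rich elements and promotes decay of the bound mRNA. The study compared wild type with L2-fKO, called L2-cKO in the sample labels, in the spleens of 4 and 4 mice and in the ovaries of 3 and 3 mice, with 1 animal per library. In L2-fKO, floxed *Zfp36l2* had been deleted in all tissues by Cre under the CMV promoter, which acts early in the embryo, and wild-type littermates also carried the CMV-Cre transgene. The animals were young pups whose individual ages are not given in the labels, L2-fKO pups died early, and deletion in every tissue means that a change in 1 cell type cannot be assigned to loss of the protein in that cell. By the labels, wild-type spleens 1 and 3 were from females and 2 and 4 from males, L2-fKO spleen 3 was from a female and the other L2-fKO spleens from males, and the spleen material is labelled as organoid, although the study's methods describe RNA taken directly from dissected tissue. L2-fKO spleen 3 and L2-fKO ovary 1 came from the same animal. The labels do not name the litter of each library, so p-values measure the spread between these animals.

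Platelets are shed by megakaryocytes and have no nucleus, so their mRNA is inherited from the megakaryocyte. Alpha granules hold adhesive proteins, chemokines and coagulation factors, dense granules hold small molecules such as ADP and serotonin, and both empty when thrombin, ADP or thromboxane act on G protein-coupled receptors. The mouse spleen makes blood cells early in life and contains megakaryocytes as well as trapped platelets. Many platelet proteins are not particular to platelets: endothelium, muscle, macrophages and mast cells use several of the same genes, and the 37 genes were therefore described both by role and by how much of each remained in the L2-fKO spleen and was present in the ovary, an organ that does not make platelets.

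The counts on genes were 39138010 to 45167464 per spleen library and, recovered from the normalized values, 31052510 to 44270070 per ovary library. The targeted gene *Zfp36l2* had a normalized count of 4362 to 7394 in wild-type and 278 to 405 in L2-fKO spleens, and of 4745 to 4906 in wild-type and 758 to 1011 in L2-fKO ovaries, so each library matched its label. The B cell marker *Cd79a*, the T cell marker *Cd3e* and the macrophage marker *Adgre1* were present in every spleen, and the oocyte gene *Zp3* and the granulosa cell genes *Foxl2* and *Fshr* in every ovary. Spleen values here are normalized counts, that is counts brought to a common library size with TMM factors, and ovary values are the authors' counts divided by a size factor per library. A gene was called lower or higher at a Benjamini-Hochberg adjusted p below 0.05 over all genes tested and a log2 fold change beyond 1 in size.

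In the spleen, 22 of the 37 platelet genes were lower in L2-fKO, 0 were higher and 15 were not called by edgeR's quasi-likelihood test. At an unadjusted p below 0.05, 2 members were higher, beside 14.4% of all genes, and DESeq2 called 0 higher. Of all 16911 genes tested, 3.11% were called lower and 2.9% higher. All 37 genes passed the filter on low counts. The median log2 fold change of the set was -1.83, against -0.02 for all genes tested, and 30 members were below 0, where 52.2% of all genes were. Without the limit on fold change, 26 members had an adjusted p below 0.05, beside 13.4% of all genes in either direction, and the 4 that did not pass the fold limit were *Arhgap6*, *Myl9*, *Fermt3* and *Ctla2a*. Libraries of the genotypes did not overlap for 26 members, 25 with L2-fKO below and *Pear1* with L2-fKO above, where 10.8% and 9.61% of all genes were separated in those directions. The spread among members was wide, from 1.5% of the wild-type mean left for *Ppbp* to 142% for *Tbxas1*. RNA was taken from whole tissue, so fewer cells of a type and less RNA per cell cannot be told apart.

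**Figure D1:**
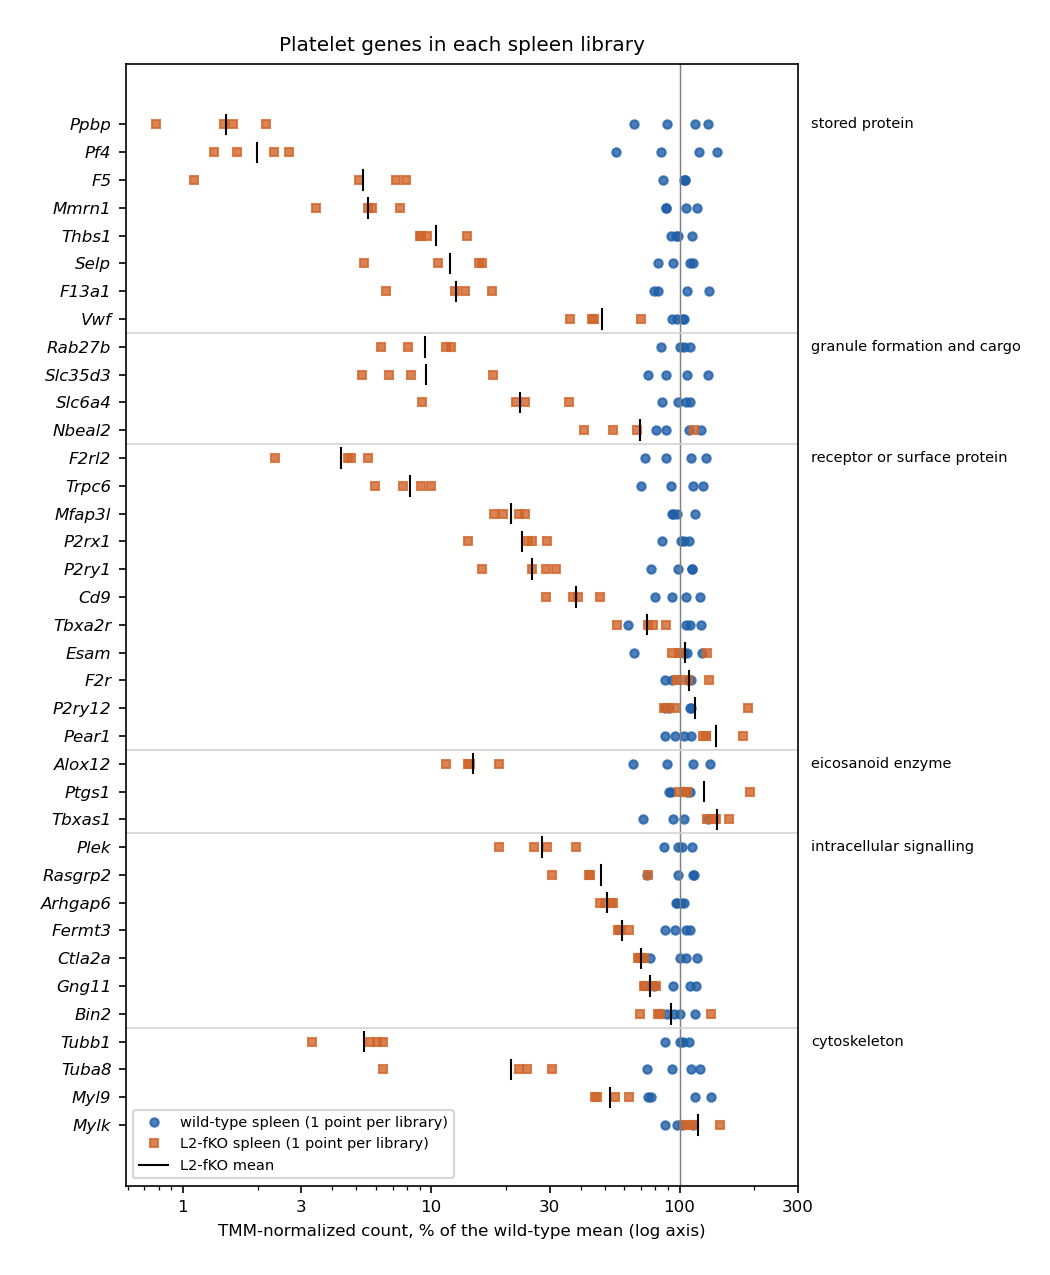
TMM-normalized count of each platelet gene in each spleen library as a percent of the gene's wild-type mean on a log axis, grouped by role, with circles for the 4 wild-type libraries, squares for the 4 L2-fKO libraries and a black line for the L2-fKO mean. Stored protein genes sit to the left, down to 1.5% for *Ppbp*, whereas the genotypes overlap for *Esam*, *F2r*, *P2ry12* and *Mylk*, each with its highest value in L2-fKO spleen 4.

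The 7-mer UAUUUAU is an AU-rich element that ZFP36L2 is known to bind. It was searched on the sense strand, overlaps counted, in the longest GENCODE vM21 3′UTR of each gene. It was present in 9 of 36 members with a 3′UTR (25%) and in 29.5% of 14227 tested genes with one. The median 3′UTR was shorter in members, 972.5 against 1331 nt. It was held by 4 of 16 members with under 25% of the wild-type mean left in L2-fKO spleen and by 5 of 20 of the others. Sites are shown, with the 7-mer in capitals, for genes with different outcomes in spleen: *Thbs1* and *Trpc6* had under 25% left, *P2ry1* and *Plek* were lower with slightly more left, and *F2r* and *Tbxas1* were not called. The longest 3′UTR can belong to any annotated transcript of the gene. The sites shown for *Tbxas1* and *Trpc6* lie well before the annotated gene ends (39084585 and 8680741). Whether the spleen uses the transcripts with those sites was not tested. Coordinates are GRCm38 and the RNA is written 5′ to 3′.
*Thbs1*, chr2:118126031-118126060, plus strand: acaauguaauaUAUUUAUuuuguuccccua
*Trpc6*, chr9:8627216-8627245, plus strand: cuuauuucauuUAUUUAUaugugugugcac
*P2ry1*, chr3:61007625-61007654, plus strand: cauuguaauagUAUUUAUugaagagguuug
*Plek*, chr11:16973404-16973433, minus strand: aagugacaauaUAUUUAUggucuaaugaac
*F2r*, chr13:95602418-95602447, minus strand: aaauuacacacUAUUUAUuuacaaauguuu
*Tbxas1*, chr6:38952315-38952344, plus strand: uuuuaaugaugUAUUUAUuuuuaauuuaug
A match is a description of the sequence and no evidence of binding.

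Megakaryocyte genes are known for promoters with GATA and ETS factor sites close together. Windows of 250 bases before to 50 after the start site (RefSeq, GRCm38.p6) were given for 31 members. The letters AGATAA, on either strand, were in the windows of 5 members (*Pf4*, *F2rl2*, *P2rx1*, *Mfap3l* and *Ctla2a*) and of 12.7% of 27025 genes, and AGGAAG, on either strand, in 18 members and 38.4% of genes. Both were in 1 and the same window for *Pf4*, *F2rl2* and *Ctla2a*, and for 4.61% of genes. *Mfap3l* held both, but in different windows. Of 11 genes with under 25% left in L2-fKO spleen and either under 25% of the spleen level in ovary or no ovary value, 3 held AGATAA and 7 AGGAAG. Of 4 genes low in L2-fKO spleen only, 1 held AGATAA and 1 AGGAAG, of 7 low in ovary only, 0 and 5, and of 9 low in neither, 1 and 5. The stretches of *Pf4* and *F2rl2*, the 2 genes that differed most between organs, are shown with 1 match per stretch in capitals (CTTCCT is AGGAAG on the opposite strand).
*Pf4*, chr5:90772455-90772484, plus strand: actgggcaggcagtgaAGATAAaacgtgct
*Pf4*, chr5:90772414-90772443, plus strand: ttctgcagagcaCTTCCTcatcctgtatcc
*F2rl2*, chr13:95696813-95696842, plus strand: ggggtgaggaagAGATAAaagggatatggc
In *F2rl2*, AGGAAG lies directly before AGATAA and is in lower case in the stretch shown. A window without these letters says only that they are not in that stretch.

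Genes for proteins that platelets store, most of them in or on alpha granules, formed the most uniformly lower group. All 8 were lower in L2-fKO, with 1.5% to 48.9% of the wild-type mean left and a median of 8.01%. The chemokine genes *Ppbp* (chromosome 5, 90768518 to 90770063, GRCm38), which encodes the precursor of CXCL7, and *Pf4* (chromosome 5, 90772435 to 90773383), which encodes platelet factor 4, lie next to each other and fell furthest. *Ppbp* had a normalized count of 13669, 19949.6, 10085 and 17738 in wild-type spleens 1 to 4 and 244, 331, 119 and 225 in L2-fKO spleens 1 to 4. The lowest wild-type library was thus far above the highest L2-fKO library (log2 fold change -6.06 ± 0.36 SE, adjusted p = 1.49e-05). *Pf4* was at 6005, 10102, 3984 and 8536 in wild type and 118, 192, 95.6 and 166 in L2-fKO, again without overlap (log2 fold change -5.64 ± 0.36 SE, adjusted p = 1.86e-05). These were the most abundant mRNAs of the set in wild type when counts were divided by exon length, with 14183 normalized counts per kb for *Ppbp* and 9926 for *Pf4*, and in L2-fKO they ranked 15 and 16 among the 37 genes, at 212 and 198 per kb.

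Genes for stored coagulation and adhesion proteins followed. *F5*, which encodes coagulation factor V, also made by the liver, had normalized counts of 1179 ± 115 in wild type and 63.0 ± 36.0 in L2-fKO (SD, n = 4 each), and *Mmrn1*, which encodes multimerin 1, the carrier of factor V in alpha granules, had 1011 ± 144 in wild type and 56.4 ± 16.9 in L2-fKO (SD, n = 4 each). They had 5.34% and 5.58% of the wild-type mean left, with log2 fold changes of -4.22 (adjusted p = 3.80e-04) and -4.15 (adjusted p = 1.23e-05). *Thbs1*, for the adhesive glycoprotein thrombospondin 1, had 10691 ± 956 in wild type and 1116 ± 254 in L2-fKO (SD, n = 4 each) (log2 fold change -3.26 ± 0.17 SE, adjusted p = 8.84e-06). *Selp*, for P-selectin, which moves from the granule membrane to the surface, had 11.9% left, and *F13a1*, for the fibrin cross-linking subunit of factor XIII, which platelets carry in the cytosol, had 12.6%, with log2 fold changes of -3.06 and -2.99 (adjusted p = 3.76e-04 and 2.84e-04). The libraries of the genotypes were separate for each of these genes, and the smallest raw counts in L2-fKO were 11 for *Selp* and 12 for *F5*, so that counting error is large for those libraries.

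*Vwf*, for von Willebrand factor, which tethers platelets to the injured vessel wall and is also made by endothelium, was the stored protein gene with most mRNA left. It had 2932, 3094, 2799 and 3124 in wild-type spleens 1 to 4 and 1327, 1352, 2087 and 1079 in L2-fKO spleens 1 to 4. Of the L2-fKO libraries spleen 3 had most, still below every wild-type library, and the decrease was close to the fold limit (log2 fold change -1.03 ± 0.18 SE, adjusted p = 0.00635). It was within that limit in the fits without L2-fKO spleen 1, 2 or 4 (-0.99, -0.997 and -0.91). Of 10 markers of endothelium, 0 were called in either direction by edgeR or DESeq2 and 4 had an unadjusted p below 0.05, and their summed level was 552 to 736 CPM (counts scaled to the library total) in wild type and 681 to 1202 in L2-fKO.

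Of 4 genes for granule formation and cargo, the 3 tied to dense granules were lower. *Rab27b*, for a small GTPase of granule secretion that mast cells also use, had 1036, 1361, 1240.4 and 1286 in wild-type spleens 1 to 4 and 99.2, 147, 77.1 and 142 in L2-fKO spleens 1 to 4. No L2-fKO library came near the lowest wild-type library (log2 fold change -3.40 ± 0.22 SE, adjusted p = 1.86e-05). *Slc35d3*, needed to form dense granules, had 9.51% of the wild-type mean left (log2 fold change -3.37 ± 0.37 SE, adjusted p = 5.14e-04), and *Slc6a4*, the serotonin transporter that fills platelets with serotonin from plasma, had 22.7% (log2 fold change -2.13 ± 0.33 SE, adjusted p = 0.00336). *Nbeal2*, whose loss causes gray platelet syndrome through missing alpha granules and which leukocytes also express, differed from these. It had 1313, 1052, 1464 and 958 in wild type and 648, 809, 494 and 1369 in L2-fKO. L2-fKO spleen 4 lay within the wild-type range and the other L2-fKO libraries below it (log2 fold change -0.53 ± 0.29 SE, adjusted p = 0.256). Of 8 markers of mast cells and basophils, 5 were higher, 0 lower and 3 not called in L2-fKO (median log2 fold change 2.21, summed level 38.7 to 72.3 CPM in wild type and 57.0 to 394 in L2-fKO). Their part in the values of *Rab27b* and *Slc6a4*, which mast cells also use, was not tested.

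Among 11 receptors and surface proteins, 6 were lower and 5 not called, with 4.33% to 139.7% left. The thrombin receptors split. *F2rl2* encodes PAR3, which with PAR4 senses thrombin on mouse platelets. It had 1138, 1652, 936 and 1433 in wild-type spleens 1 to 4 and 59.5, 72.0, 30.4 and 61.4 in L2-fKO spleens 1 to 4, groups that were far apart (log2 fold change -4.52 ± 0.28 SE, adjusted p = 1.86e-05). *F2r* encodes PAR1, which human platelets use and mouse platelets do not, and which endothelium expresses. It had 2735, 3390.1, 3497 and 2936 in wild type and 3069, 3382, 3109 and 4137 in L2-fKO, and the groups overlapped (log2 fold change 0.13 ± 0.13 SE, adjusted p = 0.557). Both genes lie on chromosome 13, *F2r* from 95601803 to 95618487 and *F2rl2* from 95696853 to 95702739.

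The purinergic receptors split as well. *P2rx1*, an ATP-gated cation channel also found in smooth muscle, had 862 ± 91.5 in wild type and 201 ± 55.7 in L2-fKO (SD, n = 4 each) (log2 fold change -2.10 ± 0.21 SE, adjusted p = 3.56e-04). *P2ry1*, the ADP receptor that signals through Gq, had 25.6% left (log2 fold change -1.97 ± 0.22 SE, adjusted p = 5.75e-04). *P2ry12*, the ADP receptor that signals through Gi and is also used by macrophages and microglia, stood at 396, 394, 312 and 324 in wild-type spleens 1 to 4 and 320.5, 309, 342 and 670.2 in L2-fKO spleens 1 to 4. L2-fKO spleen 4 was the highest of all 8 and the other L2-fKO libraries were close to the lower wild-type values (log2 fold change 0.20 ± 0.25 SE, adjusted p = 0.634). Without that library the log2 fold change of *P2ry12* was -0.14. Macrophage markers had 0 of 8 calls in either direction by edgeR and 4 with an unadjusted p below 0.05 (DESeq2 called 0 higher). Within the fold limit, *Mertk* (0.79) and *Adgre1* (0.87) had edgeR adjusted p of 0.0143 and 0.0481. The 8 markers had a median log2 fold change of 0.46 and a summed level of 775 to 1257 CPM in wild type and 1204 to 2448 in L2-fKO. The part of macrophages in the values of *P2ry12* was not tested.

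*Tbxa2r*, the thromboxane receptor of platelets and smooth muscle, had 786, 867, 444 and 756 in wild type and 557, 531, 399 and 630.1 in L2-fKO. Wild-type spleen 3 lay within the L2-fKO range, and no call was made (log2 fold change -0.43 ± 0.22 SE, adjusted p = 0.223). Among channels and surface proteins, *Trpc6*, a receptor-operated cation channel, had 8.19% left (log2 fold change -3.61 ± 0.26 SE, adjusted p = 3.94e-05), and *Mfap3l*, a membrane protein, 21.0% (log2 fold change -2.25 ± 0.17 SE, adjusted p = 5.19e-05). The tetraspanin gene *Cd9*, the most abundant receptor or surface gene per kb in wild type, was at 3322, 4290.1, 2847 and 3783 in wild-type spleens 1 to 4 and 1383, 1321, 1032 and 1696 in L2-fKO spleens 1 to 4. Its groups did not overlap and it was lower (log2 fold change -1.39 ± 0.17 SE, adjusted p = 0.0010).

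In this group *F2r*, *Esam* and *Pear1*, which endothelium also expresses, had 106% to 139.7% of the wild-type mean and no call. They are not a full list of the members that endothelium expresses, and *Vwf*, also made by endothelium, was called lower. Whether sharing with endothelium goes with the level left was not tested. *Esam*, an adhesion molecule of endothelial junctions and platelets, had 1913, 2267, 1202 and 1969.8 in wild type and 1828, 1859, 1709.8 and 2364 in L2-fKO. Those groups overlapped (log2 fold change 0.08 ± 0.19 SE, adjusted p = 0.820). *Pear1*, a receptor that signals during platelet contact, was at 1206, 1130.4, 945 and 1040.0 in wild type and 1382, 1377, 1338 and 1941 in L2-fKO, so that every L2-fKO library exceeded every wild-type library. By edgeR the adjusted p missed the limit (log2 fold change 0.48 ± 0.15 SE, adjusted p = 0.0562). By DESeq2 *Pear1* had an adjusted p of 0.0197 and was within the fold limit (log2 fold change 0.48). The highest value was again L2-fKO spleen 4. Among the 10 endothelial markers, log2 fold changes ran from -0.19 for *Cldn5* and -0.02 for *Emcn* to 0.70 for *Cdh5* and 0.75 for *Flt1*, with adjusted p = 0.0261 for *Cdh5* and 0.00543 for *Flt1*, both within the fold limit.

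Of 3 eicosanoid enzymes, 1 was lower. *Alox12*, the platelet-type lipoxygenase and the most abundant of these mRNAs per kb in wild type, had 3124, 4633, 2282 and 3951 in wild-type spleens 1 to 4 and 502, 494, 399.8 and 657 in L2-fKO spleens 1 to 4. It was lower without overlap (log2 fold change -2.77 ± 0.24 SE, adjusted p = 1.33e-04). The enzymes that make thromboxane from arachidonic acid were not called. *Ptgs1*, the constitutive cyclooxygenase that aspirin blocks in platelets, had 1904, 1966, 1608 and 1637 in wild type and 1857, 1906, 1767 and 3430.3 in L2-fKO, where L2-fKO spleen 4 alone stood above the rest (log2 fold change 0.33 ± 0.21 SE, adjusted p = 0.327). *Tbxas1*, thromboxane synthase, which macrophages also express, had 1415, 1955, 1069 and 1569.6 in wild type and 2114, 2076, 2372 and 1944 in L2-fKO. L2-fKO spleens 1, 2 and 3 were above every wild-type library and L2-fKO spleen 4 just below wild-type spleen 2 (log2 fold change 0.50 ± 0.17 SE, adjusted p = 0.0803).

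Of 7 intracellular signalling genes, 2 were lower and 5 not called, and each had at least 28% of the wild-type mean left. *Plek*, for pleckstrin, the main protein kinase C substrate of platelets and also present in leukocytes, had 8783, 9694, 7482 and 8496 in wild-type spleens 1 to 4 and 2232, 2511, 1613 and 3299 in L2-fKO spleens 1 to 4. The groups were separate (log2 fold change -1.83 ± 0.20 SE, adjusted p = 4.91e-04). *Rasgrp2*, for the exchange factor that switches on Rap1 when calcium rises, had 5037 ± 951 in wild type and 2425 ± 949.9 in L2-fKO (SD, n = 4 each), with overlap between L2-fKO spleen 4 and the lowest wild-type spleen (log2 fold change -1.05 ± 0.25 SE, adjusted p = 0.0244). Its call was lost in the fits without wild-type spleen 1, 2 or 4 and without L2-fKO spleen 1, 2 or 3, with log2 fold changes of -1.07 to -0.89. *Fermt3*, for the integrin activator kindlin-3 of blood cells, the most abundant signalling mRNA per kb in wild type, had 12053, 13885, 10962 and 13317 in wild type and 7229.9, 7100.2, 7823 and 7257 in L2-fKO. No values were shared between the genotypes, and the change was within the fold limit (log2 fold change -0.77 ± 0.11 SE, adjusted p = 0.00195).

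The remaining signalling genes lay between 51.2% and 92.1% of wild type. *Arhgap6*, a GTPase-activating protein, had 695, 747, 728 and 698 in wild type and 379, 358, 344 and 386 in L2-fKO, without overlap (log2 fold change -0.97 ± 0.11 SE, adjusted p = 5.31e-04). *Ctla2a*, a cysteine protease inhibitor, had 2028, 2248, 1461 and 1927 and 1373, 1328, 1346 and 1302 in the same order (log2 fold change -0.52 ± 0.13 SE, adjusted p = 0.0306). The highest L2-fKO library of *Ctla2a* was just below the lowest wild-type library. *Gng11*, a G protein gamma subunit of platelets and endothelium, had 1313, 1634, 1103 and 1537 in wild type and 1127, 1087, 1010.2 and 1009.6 in L2-fKO (log2 fold change -0.40 ± 0.13 SE, adjusted p = 0.0786). Its ranges met. *Bin2*, for a membrane-curving BAR domain protein of blood cells, had 4464, 5165, 3968 and 4237 in wild type and 3642, 3724, 3094 and 5964 in L2-fKO, where L2-fKO spleen 4 was the highest of all libraries and the other 3 were below all wild-type libraries (log2 fold change -0.12 ± 0.19 SE, adjusted p = 0.725). Markers of neutrophils, which share *Fermt3*, *Plek* and *Rasgrp2* with platelets, were lower in 8 of 8 cases, from -2.81 for *Camp* and -2.54 for *Elane* to -1.99 for *S100a8* and -1.84 for *Prtn3*, and their sum was 3801 to 6522 CPM in wild type and 228 to 1441 in L2-fKO. The part of neutrophils in the values of the leukocyte-shared genes was not tested.

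The 4 cytoskeletal genes separated into tubulins and the myosin system. *Tubb1*, for the beta tubulin that builds the marginal band of the platelet, had 1593, 1889, 1839.7 and 1992 in wild-type spleens 1 to 4 and 111, 117, 60.8 and 104 in L2-fKO spleens 1 to 4. It was lower without overlap (log2 fold change -4.22 ± 0.21 SE, adjusted p = 8.84e-06). *Tuba8*, for an alpha tubulin, had 21.0% left (log2 fold change -2.25 ± 0.39 SE, adjusted p = 0.00537). *Myl9*, for the regulatory light chain of myosin in platelets and smooth muscle, was the third most abundant of the 37 mRNAs per kb in wild type and ranked 1 in L2-fKO (4696 and 2466 per kb). It was at 4193, 7280.2, 4076 and 6279 in wild type and 2998, 3408, 2504 and 2549 in L2-fKO. The groups were separate and the change was within the fold limit (log2 fold change -0.93 ± 0.20 SE, adjusted p = 0.0158), and *Myl9* passed it when wild-type spleen 1, wild-type spleen 3 or L2-fKO spleen 2 was left out (-1.04, -1.05 and -1.03). *Mylk*, for the kinase that phosphorylates that light chain, had 3222, 4169.9, 3765 and 3589 in wild type and 4050.3, 4207, 3859.6 and 5375 in L2-fKO, with overlap (log2 fold change 0.25 ± 0.13 SE, adjusted p = 0.244). Of 8 smooth muscle markers 0 were lower and *Pdgfrb* was higher, with *Lmod1* at -0.25 and *Cnn1* at -0.11, *Actg2* at 0.73 and *Pdgfrb* at 1.15 on the log2 fold scale. *Actg2* was within the fold limit with an edgeR adjusted p of 0.00998.

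The genes were then separated by the mRNA left in the L2-fKO spleen and by the level in the wild-type ovary, each with a limit of 25%. Residual is the L2-fKO mean as a percent of the wild-type mean in spleen, and the ovary level is the wild-type ovary mean as a percent of the wild-type spleen mean in CPM over the genes in both tables. This is a description and carries no test, since the split uses the spleen comparison. Under 25% of wild type remained for 17 members, beside 1.28% of all genes tested. Of these, 11 were also low in the ovary or not analysed there: *Ppbp*, *Pf4*, *F2rl2*, *F5*, *Tubb1*, *Slc35d3*, *Selp*, *F13a1*, *Alox12*, *Tuba8* and *P2rx1*. In the ovary, the 8 of the 11 genes analysed there had 1.40% to 21.4% of their spleen level.

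A further 6 members were low in the L2-fKO spleen and present in the ovary at 50.9% to 225% of the spleen level: *Mmrn1*, *Trpc6*, *Rab27b*, *Thbs1*, *Mfap3l* and *Slc6a4*. Another 9 kept 28% to 142% in the L2-fKO spleen and were low in the ovary, at 0.976% to 21.2% of the spleen level: *Plek*, *Rasgrp2*, *Vwf*, *Fermt3*, *Tbxa2r*, *Bin2*, *P2ry12*, *Ptgs1* and *Tbxas1*. Of these, *Plek*, *Rasgrp2* and *Fermt3* are shared with neutrophils. Use by leukocytes was not compared between the classes. The last 11, *P2ry1*, *Cd9*, *Arhgap6*, *Myl9*, *Nbeal2*, *Ctla2a*, *Gng11*, *Esam*, *F2r*, *Mylk* and *Pear1*, passed both limits, with 25.6% to 139.7% left in L2-fKO and an ovary level of 30.5% to 476% of spleen. Members nearest the residual limit were *Slc6a4* (22.7%) and *P2rx1* (23.3%) inside it and *P2ry1* (25.6%) and *Plek* (28%) outside it, and those nearest the ovary limit were *Vwf* (21.2%) and *F13a1* (21.4%) inside and *P2ry1* (30.5%) and *Ctla2a* (31.1%) outside. For the ovary percentages, spleen counts and recovered ovary reads were scaled to the library total over the genes in both tables. The percentages therefore depend on that set of genes and on the other mRNAs of each organ.

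**Figure D2:**
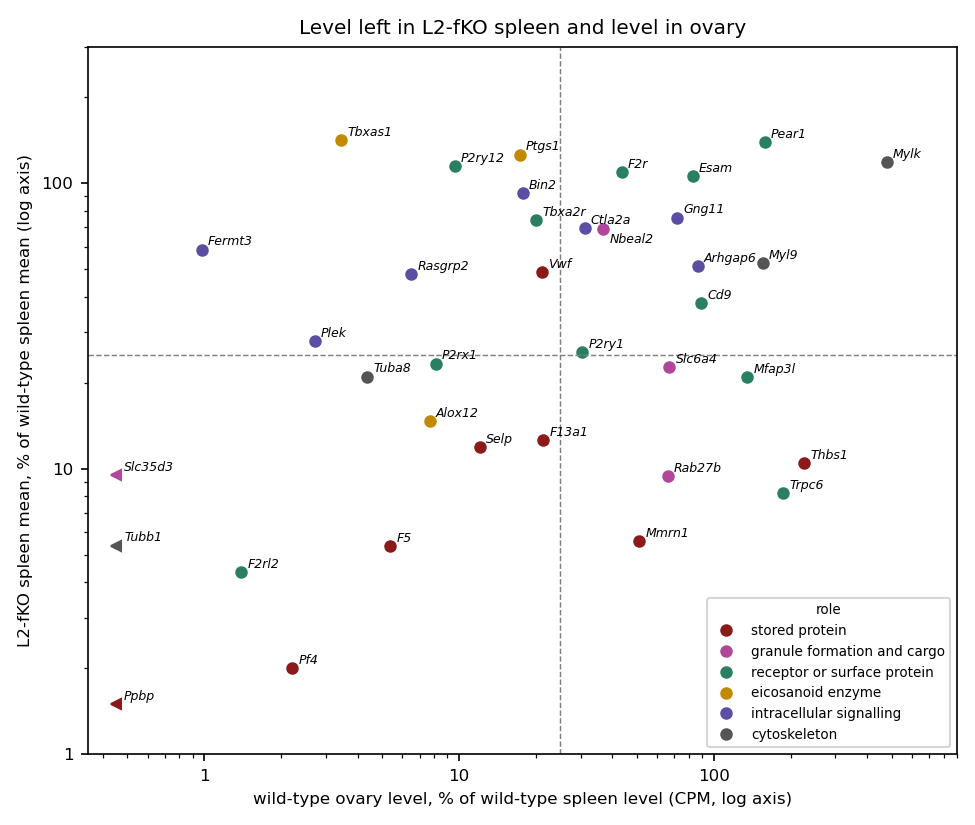
Each point is 1 platelet gene, with the wild-type ovary level as a percent of the wild-type spleen level on the horizontal log axis and the L2-fKO spleen mean as a percent of the wild-type spleen mean on the vertical log axis. Dashed lines mark 25%, colours give the role of the gene, and triangles at the left edge are the 3 genes not analysed in ovary. The lower left field holds 11 genes, led by *Ppbp* at 1.5% and *Pf4* at 2.00% of wild type.

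Single libraries lay at the edge of their group for many members. For the 11 genes low in both, the median over genes was 6.05%, 8.27%, 5.29% and 12.4% of the wild-type mean in L2-fKO spleens 1 to 4, and 88.4%, 121%, 74.8% and 111% in wild-type spleens 1 to 4. For the 11 genes low in neither it was 71.6%, 69.3%, 70.2% and 72.3% in L2-fKO. L2-fKO spleen 3, the 1 female of its group, was the lowest L2-fKO library for 26 of 37 members and for 14 of the 17 with low residual, and L2-fKO spleen 4 the highest for 19 of 37. In wild type, spleen 2 was the highest library for 28 members and spleen 3 the lowest for 26. In males only, 22 members were called lower, as in all libraries, and *Pf4* and *Ppbp* had log2 fold changes of -5.88 and -6.15.

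In the ovary, 0 of the 34 members tested were called lower or higher by limma on log2(normalized count + 1), where 0.227% and 0.73% of 18504 genes were called in those directions. *Ppbp*, *Tubb1* and *Slc35d3* were not analysed in the ovary. At an unadjusted p below 0.05 there were 12 members, all higher in L2-fKO, beside 16.8% of all genes in either direction. On the recovered reads, edgeR and DESeq2 also called 0. The median log2 fold change of the members was 0.26, against 0.00 for all genes, and 8 members were below 0, where 50.7% of all genes were. The level of *Pf4* was 176, 115 and 118 in wild-type ovaries 1 to 3 and 173, 201 and 138 in L2-fKO ovaries 1 to 3, with overlap (log2 fold change 0.33 ± 0.23 SE, adjusted p = 0.520). Thus the chemokine mRNA that was at 2.00% of wild type in the L2-fKO spleen was at 125% in the L2-fKO ovary. *F2rl2* was scarce, at 8.52, 16.7 and 21.1 and 22.4, 114 and 29.6 in the same order, where the lowest library held 7 reads, and its larger L2-fKO values did not pass the test (log2 fold change 1.49 ± 0.63 SE, adjusted p = 0.292).

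*Bin2* was the member with an adjusted p below 0.05 in the ovary by the main limma fit, where 1.58% of all genes had one. It had 653, 704 and 699 in wild-type ovaries 1 to 3 and 1147, 1298 and 1164 in L2-fKO ovaries 1 to 3, and the change was within the fold limit (log2 fold change 0.81 ± 0.09 SE, adjusted p = 0.00866). For 12 members every L2-fKO ovary was above every wild-type ovary, where 13.2% of all genes were so placed: *Vwf*, *Slc6a4*, *F2r*, *F2rl2*, *Pear1*, *Esam*, *Cd9*, *Gng11*, *Rasgrp2*, *Fermt3*, *Plek* and *Bin2*. *Vwf* was at 645, 559.9 and 439 in wild type and 1226, 967 and 679.8 in L2-fKO, and *Plek* at 195, 196 and 217 and 331, 340.1 and 277. Neither passed the adjusted limit in the main limma fit (adjusted p = 0.153 and 0.0781). In some alternative fits *Plek*, *Cd9*, *Vwf*, *Pear1* and *F2r* had an adjusted p below 0.05, all higher in L2-fKO. *Bin2* did not have one in every fit. Endothelial markers summed to 563 to 585 CPM in wild-type and 668 to 746 in L2-fKO ovaries, and macrophage markers to 64.7 to 77.7 and 85.9 to 108, with 0 calls in either list (7 of 10 and 4 of 8 at an unadjusted p below 0.05), and their part in these values was not tested. *Rab27b* was the 1 member with every L2-fKO ovary below every wild-type ovary (706, 669 and 724 and 666, 548 and 588, log2 fold change -0.22 ± 0.10 SE, adjusted p = 0.333). The members whose wild-type ovary level exceeded that in spleen were *Mylk* (476%), *Thbs1* (225%), *Trpc6* (187%), *Pear1* (158%), *Myl9* (156%) and *Mfap3l* (135%), and none of them was called in the ovary, with log2 fold changes of -0.20 for *Trpc6* to 0.31 for *Pear1*.

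**Figure D3:**
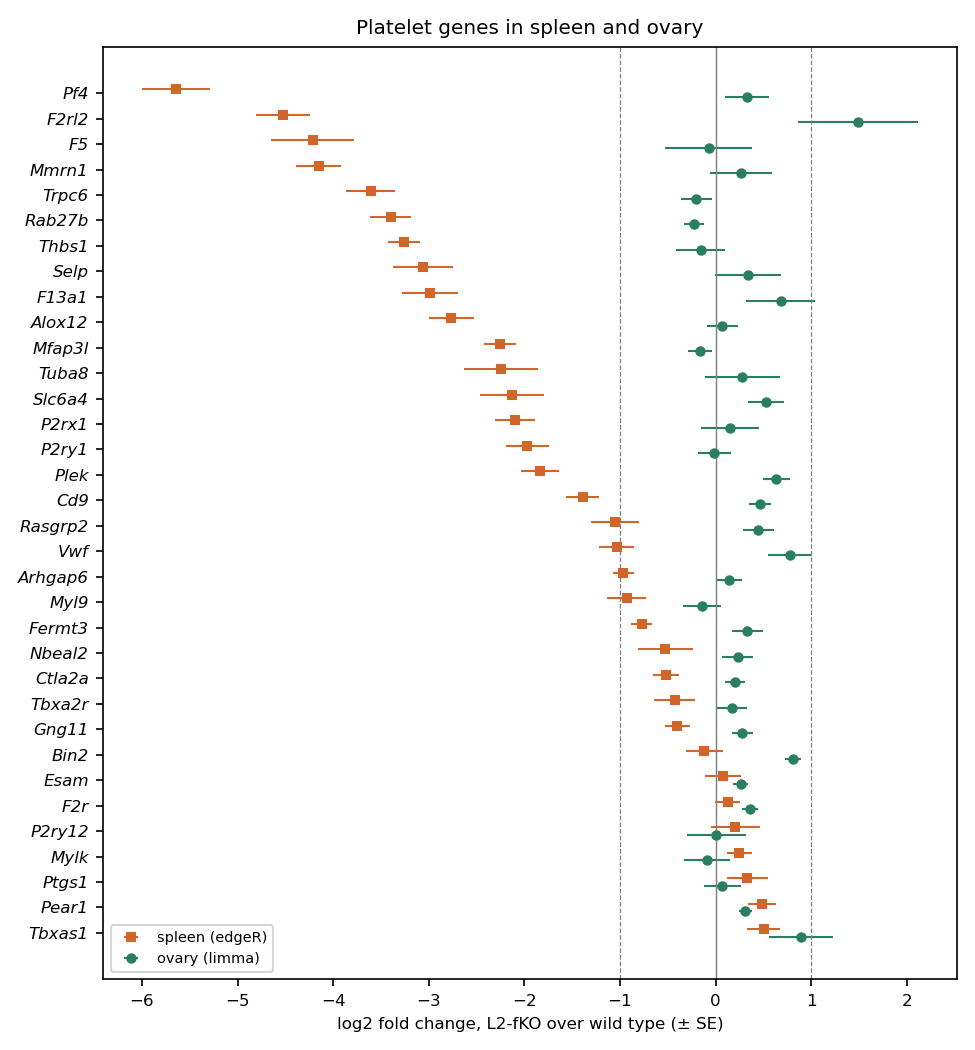
Log2 fold change of L2-fKO over wild type with its SE for the 34 platelet genes tested in both organs, squares for spleen (edgeR, 4 against 4 libraries) and circles for ovary (limma, 3 against 3 libraries), ordered by the spleen value. Spleen values run from -5.64 for *Pf4* to 0.50 for *Tbxas1*, whereas ovary values lie between -0.22 and 1.49, and dashed lines mark the limits of 1.

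The effect in the spleen was tested against the effect in the ovary with an interaction term in edgeR over all 14 libraries. The spleen effect was lower for 21 of 34 members and higher for 0, where 2.0% of 18580 genes were called lower and 1.39% higher. At an unadjusted p below 0.05, 0 members were higher, beside 10.2% of all genes. Without the fold limit, 22 members had an adjusted p below 0.05, beside 5.22% of all genes. The median difference of the log2 fold changes was -1.83, against -0.02 for all genes. *F2rl2* and *Pf4* differed most, by -6.30 ± 0.70 SE and -5.97 ± 0.47 SE on the log2 scale (adjusted p = 1.00e-04 and 1.32e-05). Among genes with more than 50% of their spleen level in the ovary, *Thbs1* differed by -3.08 (adjusted p = 5.34e-05), *Rab27b* by -3.16 (adjusted p = 1.32e-05) and *Trpc6* by -3.41 (adjusted p = 3.51e-05). *Mmrn1* (-4.51), *Slc6a4*, *Mfap3l*, *Cd9* and *Arhgap6* were also called lower among them. *Mylk* (0.32), *Pear1* (0.20), *Esam* (-0.17), *Gng11* (-0.67) and *Myl9* (-0.79) were above 50% as well and were not called. *Fermt3* and *Arhgap6*, which were within the fold limit in spleen alone, passed it here (-1.08 and -1.08). The call of *Rasgrp2* was lost without wild-type spleen 2, L2-fKO spleen 1 or 2, wild-type ovary 1 or 2, or L2-fKO ovary 2, with adjusted p up to 0.0789, and that of *Tuba8* without wild-type spleen 2 or 4, wild-type ovary 2 or 3, or L2-fKO ovary 2 or 3, with adjusted p up to 0.0900. *Arhgap6* was within the fold limit without wild-type ovary 3 (-0.99). L2-fKO spleen 3 and L2-fKO ovary 1 share an animal, and without both libraries 20 members were lower.

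Other genes of the platelet pathway were read from lists. Of 18 megakaryocyte receptors and regulators, 10 were lower and 8 not called in spleen, with a median log2 fold change of -2.48. *Gp6*, the collagen receptor glycoprotein VI (-6.41), was among the lowest, and the highest were the transcription regulators *Tal1* (0.58) and *Zfpm1* (0.61), which erythroid cells share. The 10 that were lower all encode surface proteins and the 8 not called all encode transcription regulators. By edgeR, 14 of the 18 had an unadjusted p below 0.05. Among the regulators, *Runx1* was within the fold limit (-0.41, adjusted p = 0.0218), and *Fli1* was at -0.69 (adjusted p = 0.0700). Of 28 genes of machinery that platelets share with many cells (calcium entry, integrin linkage and granule fusion), 2 were lower, 1 was higher and 25 were not called, with a median of -0.25. An unadjusted p below 0.05 by edgeR was reached by 12 of them. Within the fold limit, *Rap1b*, *Stx11* and *Unc13d* (lower) and *Snap23* (higher) had an adjusted p below 0.05. *Lat*, the adaptor of collagen receptor and T cell receptor signalling, and *Zyx*, a focal adhesion protein, had the lowest values (-1.10 and -1.03), and *Snap23*, of granule fusion, and *Pik3cb*, a kinase subunit in integrin signalling, the highest (0.37 and 1.16). In the ovary, 0 of 14 genes of the megakaryocyte list (0 at an unadjusted p below 0.05) and 1 of 28 of the shared list were called.

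Erythroid, B cell and T cell markers gave 0 calls in either direction among 8, 6 and 6 genes by edgeR and DESeq2, with 1, 0 and 0 at an unadjusted p below 0.05. Values toward either end of each list on the log2 fold scale were *Epor* (-0.39), *Ermap* (-0.06), *Tfrc* (0.39) and *Slc4a1* (0.67) for erythroid cells, *Cd79b* (-0.76), *Cd79a* (-0.64) and *Cd22* (-0.19) for B cells, and *Cd28* (-0.35), *Cd3e* (-0.32), *Cd3g* (-0.19) and *Lck* (-0.00) for T cells. Macrophage markers lay between *Cd68* (-0.13), *C1qa* (0.34), *Csf1r* (0.83) and *Adgre1* (0.87). Mast cell and basophil markers ran from *Hdc* (-0.34) and *Mcpt8* (-0.08) to *Tpsb2* (2.97) and *Fcer1a* (3.10). No marker of any list was at 0 in all libraries.

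**Figure D4:**
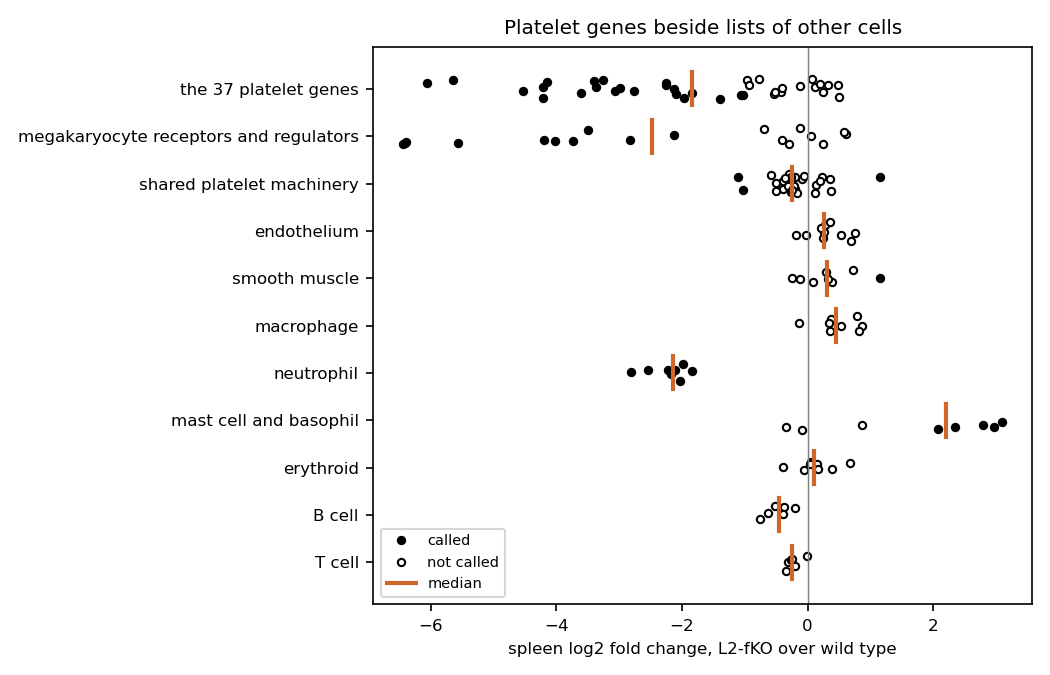
Spleen log2 fold change of each gene, L2-fKO over wild type, for the 37 platelet genes and 10 lists of genes for the pathway or for other cells, with filled points for called genes, open points for the others and a bar at the median. The platelet genes have a median of -1.83 and the megakaryocyte list -2.48, neutrophil markers lie between -2.81 and -1.84, and mast cell and basophil markers reach 3.10.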

How the data were processed

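Poly(A) RNA of 8 spleens and 6 ovaries was sequenced. The authors used Trimmomatic 0.36 for trimming, STAR 2.5.2b for mapping to GRCm38 and featureCounts of Subread 1.5.2 for strand-specific counting of unique exonic reads. For the spleen the authors deposited raw counts and the same counts divided by a size factor per library (signal values, used as a check). For the ovary the authors deposited only such normalized signal values, inside a table of their DESeq2 comparison whose fold changes and p-values were not used. Each ovary value was a whole multiple of the step of its library (100% of values within 0.001 reads), so reads were recovered and used in the interaction test and in edgeR and DESeq2 alternatives. The methods are stated for the spleen, and for the ovary they are not given separately in the sources used here.

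The spleen test was edgeR 4.0.16 (TMM, quasi-likelihood F-test) where 4 or more libraries had 10 or more counts, and the ovary test limma 3.58.1 with an intensity trend on log2(value + 1), where 3 or more libraries had a value of 10 or more. This scale understates changes of low genes. The interaction test was edgeR on genes in both tables, where 3 or more libraries had 10 or more reads. The steps were tested on simulated data. Alternatives were DESeq2 1.42.0, other size factors and filters, adjusted p as the only limit, sex, males only, a replicate block, and leaving out each library. R was 4.3.3 and Python 3.11.15. Levels per kb use the union of annotated exons.

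The labels number 2 wild-type spleens 3, and the other of these is called 4 here. No pair of libraries agreed within sampling noise. Intervals for counting error were not given. The 37 members, their roles and the gene lists come from general knowledge and were chosen with earlier results of these data known. All members are named. Values in every library are given for the lowest and highest ratio of L2-fKO to wild type in each role, the highest wild-type level per kb in each role, and members not called in spleen, and *Pf4* was added after its values were seen. Of each list the 2 lowest and 2 highest log2 fold changes are named. Some items that these rules would name or show are not reported here.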

Additional observations from a re-analysis of the deposited data

Results flagged for a closer look

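Within the spleen groups of 4, the highest or lowest library stood far from the others for 5 of 74 groups examined, and chance flags about 1 in 20 groups. *Thbs1* had a normalized count of 1494 in L2-fKO spleen 2 and at most 1032 in the other L2-fKO spleens. *F5* had 1007 in wild-type spleen 1 and at least 1231 in the other wild-type spleens. L2-fKO spleen 4 was the high library for the other 3, with 670.2 for *P2ry12*, 1941 for *Pear1* and 3430.3 for *Ptgs1*, where the next values were 342, 1382 and 1906.

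The effect in the spleen differed from the effect in the ovary for 21 of 34 platelet genes, by edgeR's interaction test with an adjusted p below 0.05 and a difference beyond 1. Differences are given as the spleen log2 fold change minus the ovary log2 fold change. Among stored protein and granule genes they were -5.97 for *Pf4*, -4.51 for *Mmrn1*, -4.23 for *F5*, -3.72 for *F13a1*, -3.34 for *Selp*, -3.08 for *Thbs1*, -1.81 for *Vwf*, -3.16 for *Rab27b* and -2.66 for *Slc6a4*. Among receptors and surface proteins they were -6.30 for *F2rl2*, -3.41 for *Trpc6*, -2.29 for *P2rx1*, -2.08 for *Mfap3l*, -1.94 for *P2ry1* and -1.85 for *Cd9*. For enzymes, signalling and cytoskeleton they were -2.83 for *Alox12*, -2.55 for *Tuba8*, -2.46 for *Plek*, -1.46 for *Rasgrp2*, -1.08 for *Fermt3* and -1.08 for *Arhgap6*. All 21 were lower in spleen, and *Ppbp*, *Tubb1* and *Slc35d3* were not analysed in the ovary.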

How the results depend on the processing

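The spleen count of 22 lower members was 22 with DESeq2, DESeq2 size factors, no filter, a stricter filter, sex as a covariate and males only, 26 with adjusted p as the only limit, and 20 to 23 when 1 library was left out. The interaction count of 21 was 20 with the stricter filter, 22 with adjusted p as the only limit and 19 to 23 with 1 library left out. The ovary count stayed 0, but with adjusted p as the only limit in the main limma fit 1 member (*Bin2*) was higher. Some alternative fits gave *Plek*, *Cd9*, *Vwf*, *Pear1* and *F2r* an adjusted p below 0.05 too. With the replicate number as a block, 22 members were lower in spleen, 0 in ovary and 21 in the interaction. The study describes the animals of the genotypes as matched by age, in pairs for the spleen, but the sources used here do not say which libraries form a pair. The numbers were not taken as pairs, since same-numbered spleens deviated from their group means with correlations of -0.31 to 0.19 and ovaries with 0.072 to 0.38, and not every library correlated best with its own number. With a limit of 10% in place of 25%, 6 members were low in L2-fKO spleen and ovary, 3 in spleen only and 20 in neither, and with 50%, 6 were low in neither. With 1 library left out these classes held 9 to 12, 6 to 7, 8 to 11 (ovary only) and 10 to 11.

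Among these alternatives, signs turned only for members without a call in that comparison. *Esam* in spleen was at -0.072 in males only, and *F5* in ovary at 0.027 with edgeR and 0.026 with DESeq2 on recovered reads. The others turned when 1 library was left out. Log2 fold changes then ran in spleen from -0.082 to 0.19 for *Esam* and -0.14 to 0.31 for *P2ry12*, and in the interaction from -0.20 to 0.50 for *P2ry12* and -0.038 to 0.44 for *Ptgs1*, with the lowest value of each but *Esam* in the fit without L2-fKO spleen 4. In ovary they ran from -0.52 to 0.24 for *F5*, -0.40 to 0.0084 for *Thbs1*, -0.15 to 0.081 for *P2ry1*, -0.36 to 0.11 for *Mylk*, -0.35 to 0.024 for *Myl9*, -0.27 to 0.16 for *P2ry12*, -0.090 to 0.24 for *Ptgs1*, -0.049 to 0.17 for *Alox12*, -0.11 to 0.61 for *Mmrn1* and -0.11 to 0.43 for *P2rx1*. The cause was not tested. Calls near the limits changed for *Vwf* (-0.9997 with sex as a covariate), *Rasgrp2* (-0.98 in males only), *Myl9* (-1.02 with sex and -1.19 in males, then called) and, in the interaction, *Arhgap6* (-0.99 without the animal that gave both organs), while *Nbeal2* (-1.12) and *Bin2* (-1.16) were called without L2-fKO spleen 4. In ovary, members with few reads, such as *F2rl2*, *Tuba8*, *Selp* and *P2ry12*, are known with little precision.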
